A study of Mus musculus with 60 samples.

Results

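The genes described here were 8 targets of the tumour suppressor p53 that act in programmed cell death, namely Bax, Bbc3, Pmaip1, Fas, Tnfrsf10b, Aen, Ei24 and Perp. They were found by matching the RefSeq accession of each array probe to a gene symbol, which gave 9 of the 55681 probes, since Aen was held by 2 probes. Symbols were found for 26413 probes, which stood for 20018 genes in all. The log2 ratio of each probe was followed over 60 arrays, which came from 20 male Muta Mouse animals aged about 10 weeks and 3 of their tissues (forestomach, liver and lung). Benzo(ghi)perylene (BghiP), a polycyclic aromatic hydrocarbon dissolved in olive oil, was given by gavage on each of 28 days. Each of 4 dose groups held 5 mice. The D0 group (mice 1 to 5) had olive oil alone. The daily dose per kg of body weight was 6.25 mg in D1 (mice 6 to 10), 12.5 mg in D2 (mice 11 to 15) and 25 mg in D3 (mice 16 to 20). All tissues of an animal carry its number. Tissues were removed 72 hours after the last dose, and RNA came from random sections of each tissue rather than from sorted cells. Every group, controls included, came from the same transgenic strain, which carries a bacterial reporter gene used to count mutations.

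When DNA is damaged, p53 is stabilised and switches on genes that halt the cell cycle, repair DNA or kill the cell. Cell death through mitochondria runs over BH3-only proteins (Bbc3, also called Puma, and Pmaip1, also called Noxa) that free Bax to open the outer mitochondrial membrane. Death receptors on the cell surface (Fas and Tnfrsf10b, the mouse TRAIL receptor) start the same caspases from outside. Lung, liver and forestomach are tissues in which polycyclic aromatic hydrocarbons are metabolised to forms that bind DNA.

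p53 binds DNA at a pair of half-sites set close together, and sequences near the start of transcription were searched for them. RefSeq windows from 250 bases before to 50 bases after a start site (assembly GRCm38.p6) were at hand for 5 of the 8 genes, in 8 windows. A single half-site is 10 bases long, with a consensus that reads the same on both strands. An exact match to 1 such half-site stood in windows of 3 of the 5 genes (Bax, Aen and Ei24) and in none of the windows of Bbc3 and Fas. Of all 32851 windows, 8.36% held one, and of the 27025 genes with a window, 9.55% did. A pair of half-sites, at most 13 bases apart and with at most 1 mismatch in all, stood in 0 of the 8 windows of the members and in 0.627% of all windows. In Bax the single half-site began 201 bases before the start site and in Ei24 10 bases before it. In Aen it lay 121 bases before one start site and 10 bases after another. The stretches below show Bax and Ei24 over the 250 bases before the start and Aen over 30 bases, with the half-site in capitals. A match is a description of the letters and not evidence of binding.
Bax, chr7:45466899-45467148, minus strand: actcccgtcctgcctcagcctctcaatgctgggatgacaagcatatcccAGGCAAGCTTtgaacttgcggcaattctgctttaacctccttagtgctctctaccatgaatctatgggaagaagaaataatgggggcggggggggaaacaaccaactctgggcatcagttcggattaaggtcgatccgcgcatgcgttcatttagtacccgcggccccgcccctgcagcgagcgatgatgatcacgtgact
Ei24, chr9:36797335-36797584, minus strand: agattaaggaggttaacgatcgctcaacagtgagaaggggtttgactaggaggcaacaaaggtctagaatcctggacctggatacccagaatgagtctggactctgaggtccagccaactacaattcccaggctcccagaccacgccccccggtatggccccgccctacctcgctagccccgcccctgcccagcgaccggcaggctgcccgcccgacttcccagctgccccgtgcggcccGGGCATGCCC
Aen, chr7:78895927-78895956, plus strand: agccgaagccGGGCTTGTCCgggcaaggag

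Values are log2 ratios of Cy5, the label of the tissue RNA, to Cy3, the label of a reference RNA pooled from 11 mouse cell lines. Such a value places a gene against that reference and allows no comparison between genes. It measures RNA, and the proteins named beside the genes were not measured. The share of probes well above background ranged from 34.9% to 58.6% over lung arrays, from 36.3% to 48.3% over liver arrays and from 21.3% to 53.3% over forestomach arrays. Slides 1 to 5 carried the lung and forestomach arrays, with every dose of both tissues present once per slide, and slides 6 to 8 carried the liver arrays. On every slide a dose had its own column, so array column and dose cannot be told apart. The labelled tissues carried their own markers. The mean log2 ratio of 6 lung markers lay between 6.04 and 6.81 on lung arrays. That of 6 liver markers lay between 7.12 and 8.31 on liver arrays. That of 8 squamous epithelium markers lay between 4.44 and 5.81 on forestomach arrays. At D0, 7 of these 8 were lower in lung and in liver than in forestomach. The remaining one, Trp63, was higher in liver by 0.67 ± 0.12 (SE) and in lung by 0.54 ± 0.12. Trp63 alone therefore did not mark forestomach here. On the lung array of D0 mouse 1, the squamous markers averaged 2.77 and 8 skeletal muscle markers 4.67, against highest values of 0.08 and 0.40 on the 19 other lung arrays. The lung array of D3 mouse 20 had a mean of 4.93 over the liver markers, against 0.44 to 1.27 on the others. On the forestomach arrays, 6 markers of glandular stomach ranged from 0.22 to 7.87 and the liver markers from 0.01 to 5.33. The forestomach array of D0 mouse 2 had a mean of 5.02 over the lung markers, against 0.58 to 2.02 on the 19 others.

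At the highest dose, Bax, Aen and Pmaip1 were each higher in lung than in vehicle mice, by 0.54, 0.46 and 0.37 on the log2 scale. The receptor Fas was lower by 0.18, and Bbc3 and Tnfrsf10b were within 0.09 of the vehicle level. None of these changes passed the test over the 31022 lung probes (adjusted p of 0.05 or less and at least 1.5-fold). The rule called 0 of 8 members, and 0% of all lung probes, at each of D1, D2 and D3. Without adjustment, 3 of the 8 genes were higher in lung at D3 with p under 0.05 (Bax, Aen and Pmaip1), against 2.88% of all lung probes, and 0 of 8 were lower, against 1.93%. The same limit was passed in either direction by 0 of 8 at D1, against 2.22% of lung probes, and by 1 of 8 (Bax) at D2, against 3.4%. The median change of the 8 genes at D3 was 0.13, and that of all lung probes was 0.0088. The 8 genes were chosen with earlier results of these data known, so these shares are no independent test of them.

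**Figure D1:**
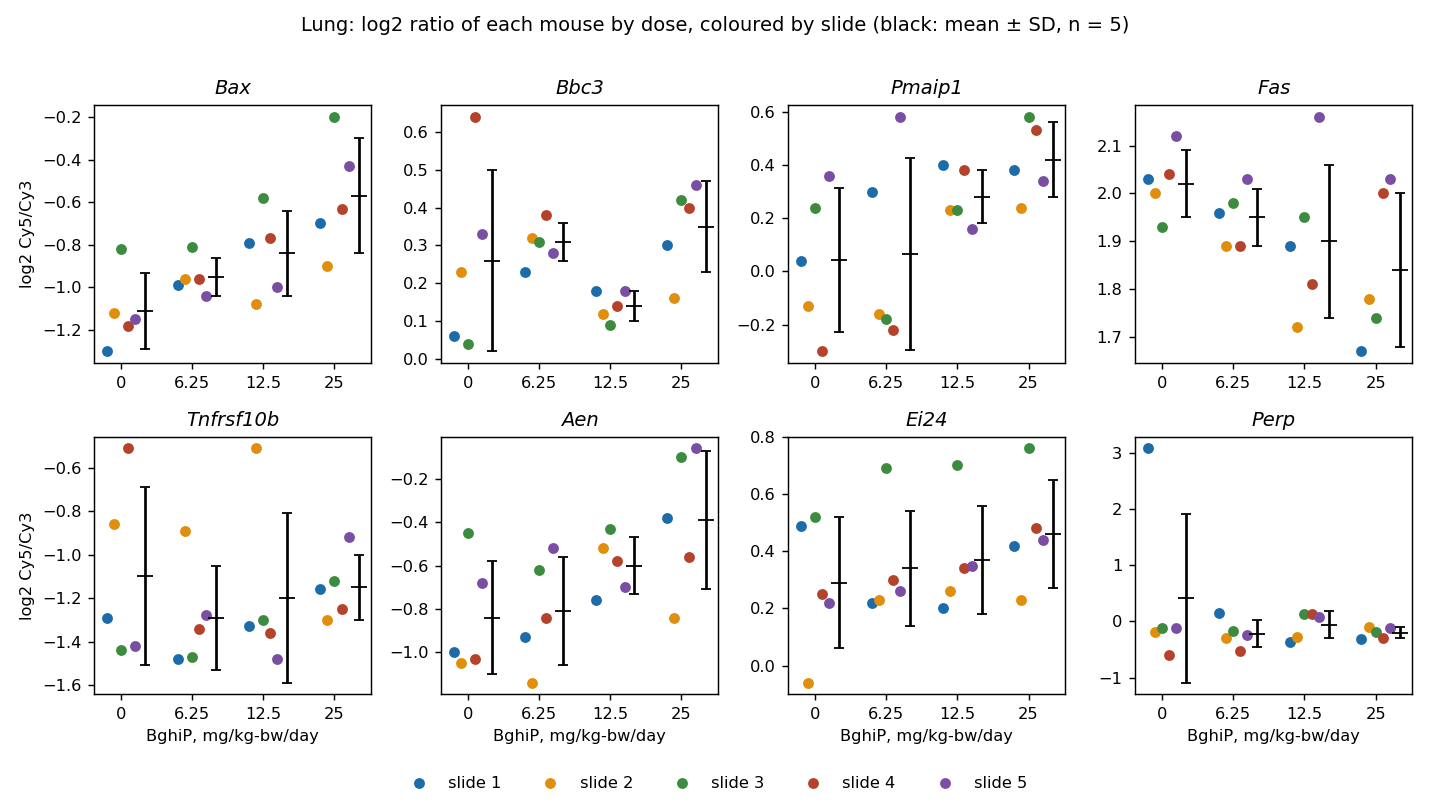
Log2 Cy5/Cy3 of the 8 genes in lung (vertical axis, own scale in each panel) against the daily dose of BghiP, with 1 point per mouse coloured by slide and the mean ± SD of 5 mice in black. Bax moved from a mean of -1.11 at 0 mg/kg to -0.57 at 25 mg/kg, and the single high Perp point, 3.08, is D0 mouse 1.

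Bax, the protein that forms pores in the mitochondrial membrane, gave lung values of -1.30, -1.18, -1.12, -0.82 and -1.15 in D0 mice 1 to 5. The D3 mice 16 to 20 gave -0.70, -0.63, -0.90, -0.20 and -0.43. Of the 5 D3 values, 4 lay above the highest D0 value, and the remaining one, from mouse 18, fell inside the D0 range. The group means were -1.11 ± 0.18 (SD, n = 5) at D0, -0.95 ± 0.09 at D1, -0.84 ± 0.20 at D2 and -0.57 ± 0.27 at D3. The change at D3 was 0.54 ± 0.12 (SE), or 1.46-fold, with an unadjusted limma p of 0.000257 and an adjusted p of 0.512. Leaving out D0 mouse 1 gave 0.50, and leaving out D3 mouse 20 gave 0.51.

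Bax also varied by slide. The slide 3 array held the highest lung value in 4 of 4 dose groups, from -0.82 at D0 to -0.20 at D3. Within slides, D3 was above D0 on 5 of 5, by 0.22 to 0.72. With slide as a block the same change of 0.54 had an SE of 0.08 and an adjusted p of 0.0167. In that fit 1 of the 8 genes (Bax) passed an adjusted p of 0.05 with no minimum fold, against 0.567% of lung probes. At the 1.5-fold minimum 0 of 8 passed, against 0.0677%. Without adjustment, 4 of 8 were higher in this fit (Bax, Aen, Pmaip1 and Ei24), against 9.37% of lung probes, and 1 of 8 was lower (Fas, unadjusted p of 0.0187), against 6.21%.

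Aen, an exonuclease that degrades DNA and RNA in dying cells, read -1.0, -1.03, -1.05, -0.45 and -0.68 in the lungs of D0 mice 1 to 5. At D3 it read -0.38, -0.56, -0.84, -0.10 and -0.06 in mice 16 to 20, of which 3 lay above the D0 range. Aen thus differed by 0.46 ± 0.15 (SE), or 1.37-fold (adjusted p of 0.897). A second Aen probe, of lower signal, gave 0.40 ± 0.17 (SE) and an adjusted p of 0.979. Both probes were higher at D3 on 5 of 5 slides, by 0.21 to 0.62 and by 0.34 to 0.52. With the slide block their adjusted p-values were 0.0541 and 0.0725. Without D3 mouse 20, whose lung array carried liver markers, the change of the brighter probe was 0.37.

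Pmaip1, the BH3-only protein Noxa, had lung values of 0.04, -0.30, -0.13, 0.24 and 0.36 at D0. The D3 lungs gave 0.38, 0.53, 0.24, 0.58 and 0.34. The lowest D3 value equalled the second highest at D0, so the groups overlapped, although 5 of 5 D3 values were above the D0 mean. Pmaip1 differed by 0.37 ± 0.15 (SE) at an adjusted p of 0.927, which fell to 0.19 once slide was a block. Its spread was wider in the lower groups, with an SD of 0.27 at D0 and 0.36 at D1, than at D2 (0.10) and D3 (0.14).

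Bbc3, the BH3-only protein Puma, had lung values that ran from 0.04 to 0.64 at D0 and from 0.16 to 0.46 at D3, a difference of 0.089 ± 0.09 (SE) with an adjusted p of 0.998. Ei24, a protein of the endoplasmic reticulum first found as a gene induced by etoposide, ran from -0.06 to 0.52 at D0 and from 0.23 to 0.76 at D3. Its difference was 0.18 ± 0.13 (SE), with an adjusted p of 0.998, and 0.241 with the slide block. As with Bax, the slide 3 array held the highest Ei24 value in 4 of 4 lung dose groups.

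The death receptors ran level or lower in lung. Fas values at D0 were 2.03, 2.04, 2.00, 1.93 and 2.12, and at D3 they were 1.67, 2.00, 1.78, 1.74 and 2.03, of which 3 lay below the D0 range. The difference of -0.18 ± 0.09 (SE) had an adjusted p of 0.998, and 0.215 with the slide block, in which D3 was above D0 on 0 of 5 slides. The slide 5 array gave the highest Fas value in 4 of 4 lung dose groups. Tnfrsf10b ran from -1.44 to -0.51 at D0 and from -1.30 to -0.92 at D3, a difference of -0.045 ± 0.19 (SE) with an adjusted p of 0.998. That sign turned positive (0.16) with the processed signals.

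Perp, a membrane protein of desmosomes that p53 and its relative p63 both control, showed how far 1 lung array can move a group. The D0 lungs gave 3.08, -0.60, -0.19, -0.11 and -0.12, and the D3 lungs -0.31, -0.30, -0.10, -0.18 and -0.11. All but D0 mouse 1 lay in 1 narrow band, and that array was the one with squamous and muscle markers. On it 8 desmosome genes averaged 1.94, against 0.31 to 0.57 on the 19 other lung arrays. Of the other 7 genes on that array, Bax (-1.30) lay below the range of the other lung arrays (-1.18 to -0.20) and 6 lay within it. The D3 difference of -0.61 ± 0.45 (SE), with an adjusted p of 0.998, became 0.057 without mouse 1. The part of the squamous markers in the Perp value was not tested.

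Over all 4 lung doses, Bax gained 0.53 ± 0.11 (SE) per 25 mg/kg-bw/day on the log2 scale, Aen 0.49 ± 0.14 and Pmaip1 0.40 ± 0.14. The slope passed an adjusted p of 0.05 in 0 of 8 genes in lung (0% of lung probes), in 0 of 7 in liver (0.239% of liver probes) and in 0 of 8 in forestomach (0% of its probes). With slide as a block, 2 of 8 passed in lung (0.306% of lung probes), namely Bax with an adjusted p of 0.018 and Aen with 0.0481. The second Aen probe, with a slope of 0.45 ± 0.10, had an adjusted p of 0.0591 in that fit and did not pass. The slopes of Bbc3 (0.062 ± 0.10), Tnfrsf10b (0.0077 ± 0.18) and Ei24 (0.17 ± 0.12) were closer to 0. Those of Fas (-0.17 ± 0.08, unadjusted limma p of 0.0389) and Perp (-0.47 ± 0.42) were negative, and that of Perp became 0.059 without D0 mouse 1. The signal of the common reference was itself compared between D0 and D3, as a background for these changes. The Cy3 signal of Bax differed by 0.037 in lung and that of Aen by 0.0097. Pmaip1 had the largest difference of the 8 in lung, -0.11 ± 0.06 (SE), with an unadjusted limma p of 0.0687 and an adjusted p of 1. In the Cy5 signal alone, Bax was higher at D3 by 0.58 ± 0.10 (SE) and Aen by 0.46 ± 0.16, whereas Pmaip1 differed by 0.26 ± 0.14 with an unadjusted limma p of 0.0724, above the limit that its ratio had passed. Fas differed by -0.20 ± 0.08 in Cy5, with an unadjusted p of 0.0207.

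In liver and forestomach no dose differed from D0 by the call rule. It was passed by 0 of 7 genes in liver and 0 of 8 in forestomach at each dose, and by 0% of the probes of either tissue. Bax read -1.50, -1.51, -1.38, -1.62 and -1.31 in the D0 livers and -1.47, -1.59, -1.58, -1.40 and -1.27 in the D3 livers. Its mean was -1.46 in both groups. In forestomach it ran from -0.99 to -0.26 at D0 and from -0.76 to -0.37 at D3, a change of 0.10 ± 0.15 (SE). Aen differed by -0.16 ± 0.19 (SE) in liver and by 0.12 ± 0.17 in forestomach. At the lower doses an unadjusted p under 0.05 was reached by 1 of 7 genes in liver at D1 (Bbc3), against 3.03% of liver probes, and by 0 of 7 at D2, against 4.15%. In forestomach it was reached by 1 of 8 (Fas) at D1, against 9.37%, and by 1 of 8 (Fas) at D2, against 3.65%. Bbc3 read 0.52, 0.72, 0.74, 0.62 and 0.40 in the D1 livers, against -0.31 to 0.43 at D0, a difference of 0.49 ± 0.17 (SE) with an adjusted p of 1. At D3 that difference was 0.064. Fas in forestomach was lower by 0.33 ± 0.14 (SE) at D1 and by 0.36 ± 0.14 at D2 (adjusted p of 0.508 and 0.998), and at D3 it stood at -0.07.

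**Figure D2:**
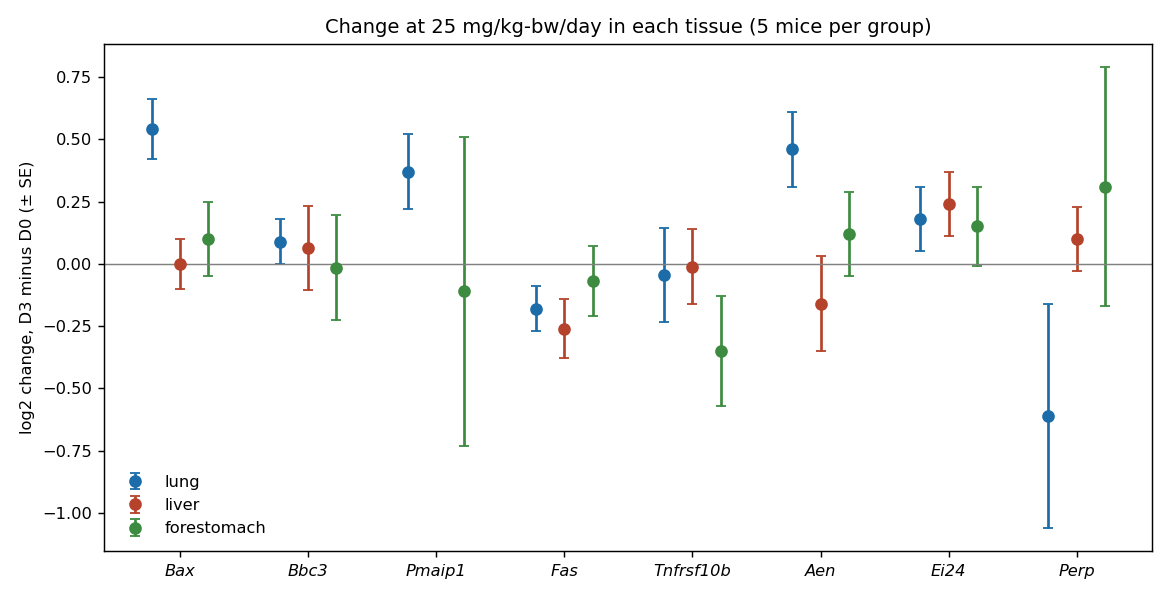
Log2 change from D0 to D3 (vertical axis) with its SE for the 8 genes in lung, liver and forestomach, 5 mice per group. Bax stood at 0.54 in lung, at 0.10 in forestomach and at 0 in liver, and Pmaip1 has no liver point because its probe did not pass the filter there.

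Among the 7 genes tested in liver, the differences at D3 were widest in Fas (-0.26) and Ei24 (0.24 ± 0.13, SE, adjusted p of 0.48), and which of them was wider changed with the setting. The D0 livers gave 1.45, 1.78, 1.75, 1.63 and 1.47, and the D3 livers 1.29, 1.41, 1.55, 1.19 and 1.35, of which 4 lay below the D0 range. Fas differed by -0.26 ± 0.12 (SE) (adjusted p of 0.385), and on slides 6 to 8 it was negative on each, between -0.35 and -0.10. It was the 1 of 7 genes that was lower in liver with an unadjusted p under 0.05, a limit that 6.72% of all liver probes passed. In the same tissue 0 of 7 were higher, against 5.43% of probes. In forestomach 0 of 8 were higher, against 0.77%, and 0 of 8 were lower, against 0.734%. With slide as a block the same limit was passed by 0 of 7 higher (8.09% of probes) and by 1 of 7 lower (Fas, 9.84%) in liver. In forestomach it was passed by 0 of 8 higher (3.73%) and by 1 of 8 lower (Tnfrsf10b, 2.69%). Tnfrsf10b read -1.11, -0.89, -0.40, -1.39 and -1.51 in the D0 forestomachs and -1.82, -1.28, -0.96, -1.64 and -1.37 at D3, and was lower on 4 of 5 slides. The difference was -0.35, with an SE of 0.22 without the block and of 0.13 with it (unadjusted p of 0.0134, adjusted p of 0.776). It became -0.19 without D0 mouse 3, whose slide 2 array was not well above background, and -0.20 with the processed signals. With slide as a block and no minimum fold, 0 of 7 passed an adjusted p of 0.05 in liver (0.305% of liver probes) and 0 of 8 in forestomach (0%). Pmaip1 in liver was well above background on 3 of 20 arrays and was not tested.

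The D3 changes of the 3 tissues were set against each other in a model of all 60 arrays. The Bax change was larger in lung than in liver by 0.54 ± 0.18 (SE), with an unadjusted limma p of 0.00347, and larger than in forestomach by 0.44 ± 0.18, with 0.0168. That of Aen was larger in lung than in liver by 0.62 ± 0.25, with an unadjusted p of 0.0173, whereas the second Aen probe gave 0.49 ± 0.26 with 0.0644. With mouse as a block, which pairs the tissues of an animal, the 2 Aen probes had unadjusted limma p-values of 0.00632 and 0.0375. No difference passed adjustment over 33255 probes (adjusted p of 1 for each of these). The rule called 0 of 8 genes, and 0% of probes, for lung against liver, lung against forestomach and liver against forestomach. Without adjustment, 2 of 8 changes were larger in lung than in liver, against 1.64% of all probes, and 1 of 8 was larger in lung than in forestomach, against 1.09%.

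Between tissues, several of these genes passed the call rule. Liver arrays had slides of their own, and on the shared slides lung and forestomach arrays lay in different rows. Tissue therefore cannot be told apart from slide in the liver comparisons, or from array row between lung and forestomach. In the vehicle mice, 4 of 8 genes were called between lung and liver (44.4% of probes), 4 of 8 between lung and forestomach (33.3%) and 7 of 8 between liver and forestomach (39.2%). Pmaip1 was among the 4 in both lung comparisons. It was well above background on all 20 lung arrays but on 3 of 20 liver arrays and on none of the D0 forestomach arrays, and without it the counts were 3 of 7, 3 of 7 and 7 of 7. The order of the tissues changed from gene to gene. The mean of Perp was highest in forestomach, that of Ei24 in liver and that of Fas in lung, although Fas was not called between lung and liver.

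**Figure D3:**
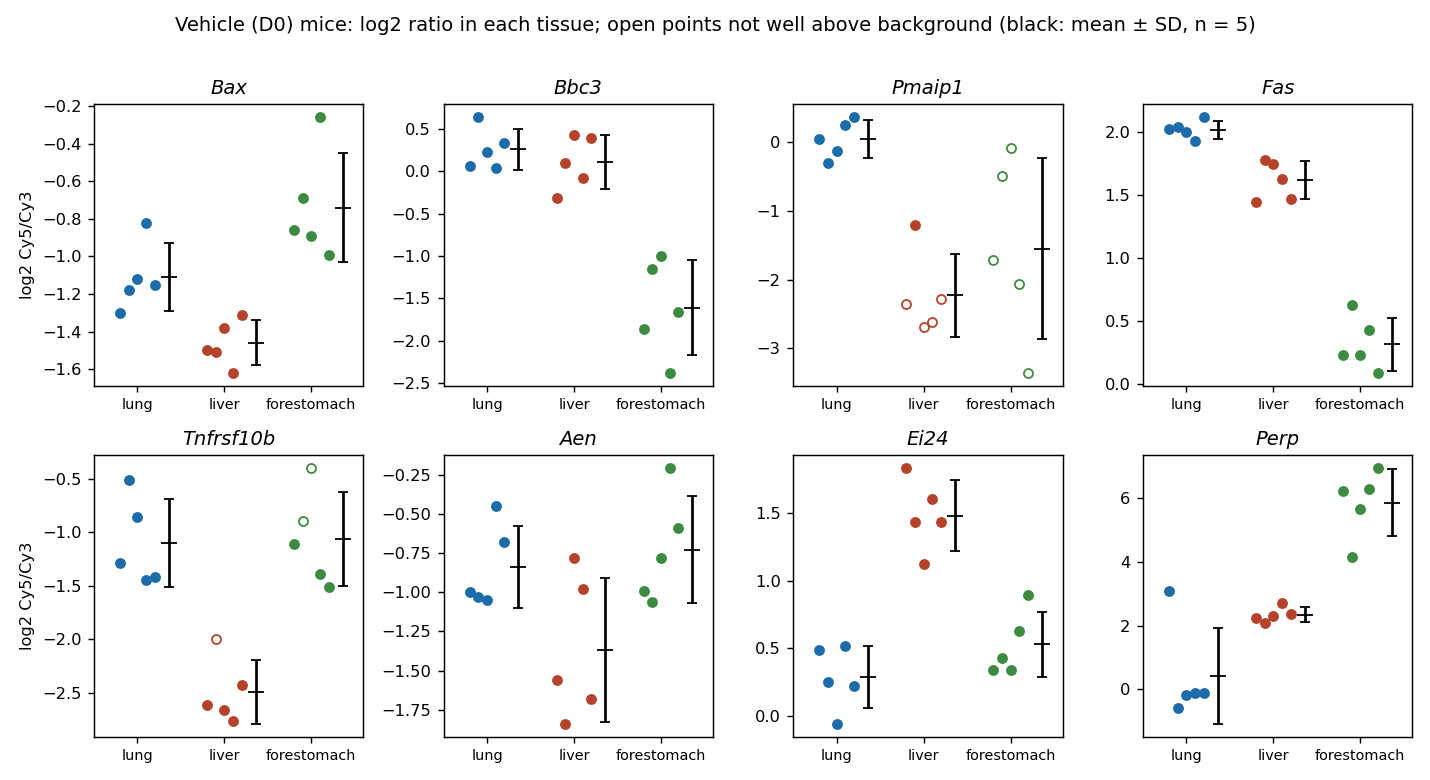
Log2 Cy5/Cy3 of the 8 genes in the 5 vehicle mice (vertical axis, own scale in each panel) in lung, liver and forestomach, with open points for arrays not well above background and the mean ± SD in black. Perp averaged 5.85 in forestomach and 2.34 in liver, and Bbc3 averaged -1.61 in forestomach against 0.26 in lung.

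Bax RNA was highest in forestomach (-0.74 ± 0.29, SD, n = 5), then in lung (-1.11 ± 0.18) and then in liver (-1.46 ± 0.12). Neither step between lung and another tissue passed the call rule. Lung was 1.3-fold lower than forestomach (adjusted p of 0.00979), with overlapping values, and 1.27-fold higher than liver (adjusted p of 0.0132). Liver and forestomach differed by 1.65-fold (adjusted p of 1.7e-06), a call lost without D0 mouse 4, when the log2 difference was -0.57. Bbc3 was lower in forestomach, at -1.86, -1.15, -1.0, -2.38 and -1.66, than in lung (0.04 to 0.64) or liver (-0.31 to 0.43). Lung exceeded forestomach by 3.65-fold (adjusted p of 2.65e-13) and liver exceeded it by 3.29-fold (adjusted p of 1.4e-12), with no overlap of either group with forestomach. Lung and liver did not differ in Bbc3 beyond their spread (adjusted p of 0.462). Pmaip1 was well above background on 5 of 5 lung arrays at D0 (-0.30 to 0.36) and on none of the 5 forestomach arrays, whose dim signals gave -1.71, -0.50, -0.09, -2.07 and -3.36 and overlapped lung. In the D0 livers it was well above background on 1 of 5 arrays (-1.21, against -2.69 to -2.28 on the others). No fold is given for either comparison.

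Of the death receptors, Fas was highest in lung (2.02 ± 0.07, SD, n = 5), then in liver (1.62 ± 0.15), and lowest in forestomach (0.32 ± 0.21). The lung values (1.93 to 2.12), liver values (1.45 to 1.78) and forestomach values (0.09 to 0.63) did not overlap. Lung exceeded liver by 1.33-fold (adjusted p of 0.00162), below the fold of the call rule, and with the processed signals that log2 difference fell from 0.41 to 0.18 (adjusted p of 0.253). Lung exceeded forestomach by 3.25-fold (adjusted p of 3.07e-18) and liver exceeded it by 2.45-fold (adjusted p of 1.75e-14). Tnfrsf10b was lowest in liver, where D0 values ran from -2.76 to -2.0, against -1.44 to -0.51 in lung and -1.51 to -0.40 in forestomach. It was 2.62-fold higher in lung than in liver (adjusted p of 1e-08) and 2.7-fold higher in forestomach than in liver (adjusted p of 5.43e-09). Both depended on the signal used. With the processed signals the log2 difference of lung from liver went from 1.39 to 2.41 and that of liver from forestomach from -1.43 to -2.07. Of the D0 arrays, 4 of 5 in liver and 3 of 5 in forestomach were well above background for it. Lung and forestomach did not differ beyond their spread (adjusted p of 0.865).

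Tnfrsf10b also varied by slide. The forestomach array on slide 2 held the highest value in 4 of 4 dose groups, from -0.96 to -0.40. Slide 2 was also where the share of forestomach probes well above background was lowest, 21.3% to 27.1%, against 49.4% to 53.3% on slide 5. In none of the 4 dose groups was the slide 2 forestomach array well above background for Tnfrsf10b. The normalized log2 Cy5 signal of Tnfrsf10b on these slide 2 arrays was 8.97, 8.50, 8.46 and 8.50 at D0 to D3. It was the highest of the forestomach arrays in each dose group. What set these values was not tested.

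Aen stood at -0.73 ± 0.34 (SD, n = 5) in forestomach, -0.84 ± 0.26 in lung and -1.37 ± 0.46 in liver. It was 1.56-fold lower in liver than in forestomach (adjusted p of 0.00163), a call lost without D0 mouse 5 (log2 difference -0.53), and its lung and forestomach levels did not differ beyond their spread (adjusted p of 0.613). Lung exceeded liver by 0.53 ± 0.18 (SE) on the log2 scale, or 1.44-fold (adjusted p of 0.00822), which missed the fold of the call rule. The second Aen probe, at 0.59 ± 0.18 (adjusted p of 0.00448), passed it. The brighter one passed it with the processed signals (0.65), with the deposited log2 ratios (0.71) and without D0 mouse 3 (0.72). Ei24 was highest in liver, at 1.83, 1.43, 1.12, 1.60 and 1.43, with no overlap with lung (-0.06 to 0.52) or forestomach (0.34 to 0.89). Liver exceeded lung by 2.29-fold (adjusted p of 9.74e-11) and forestomach by 1.94-fold (adjusted p of 4.36e-08).

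Perp in the D0 forestomachs read 6.22, 4.16, 5.65, 6.30 and 6.94, which put every mouse above every liver (2.08 to 2.71) and lung. Forestomach exceeded liver by 11.4-fold (adjusted p of 8.39e-11) and lung by 43.5-fold (adjusted p of 1.3e-16). Without the lung array of D0 mouse 1 the log2 difference between lung and forestomach went from -5.44 to -6.11, and that between lung and liver from -1.93 to -2.59. In whole tissue, more cells of a type and more RNA per cell cannot be told apart. Of 8 desmosome genes, 5 were also called lower in lung than in forestomach (14.5% of probes) and 1 was called higher (18.8%), with a median difference of -1.69. Among them the plakophilin Pkp1 differed by -5.36 ± 0.55 (SE) and the cadherin Dsg3 by -2.96 ± 0.48, whereas plakoglobin (Jup) differed by 0.03 ± 0.34. The gene called higher was another plakophilin, Pkp2, at 2.3 ± 0.34. These genes were named after their values were seen. Trp63, the gene of p63, took the other direction from Perp at D0. It was higher than in forestomach by 0.67 ± 0.12 (SE) in liver (adjusted p of 3.61e-06) and by 0.54 ± 0.12 in lung (adjusted p of 0.000158). The part of p63 in the Perp values was not tested.

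Perp varied between forestomachs, as did the markers of glandular stomach. The lowest value, 4.11 in D1 mouse 9, came from the array with the highest mean of glandular stomach markers, 7.87, and the values of 4.16 in D0 mouse 2 and 4.31 in D1 mouse 7 stood beside means of 6.74 and 7.37. The array of D0 mouse 2 was also the one with lung markers at 5.02. Without that mouse the log2 difference of lung from forestomach was -5.61 and that of liver from forestomach -3.88, and the numbers of members called between tissues stayed at 4, 4 and 7, Pmaip1 included. D1 mouse 10 had a mean of 7.38 beside a Perp value of 6.36. The D3 forestomachs lay in a narrower band (5.78 to 6.56) than the D0 forestomachs (4.16 to 6.94), and their difference was 0.31 ± 0.48 (SE), with an adjusted p of 1. The part of glandular or lung tissue in the Perp value was not tested.

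**Figure D4:**
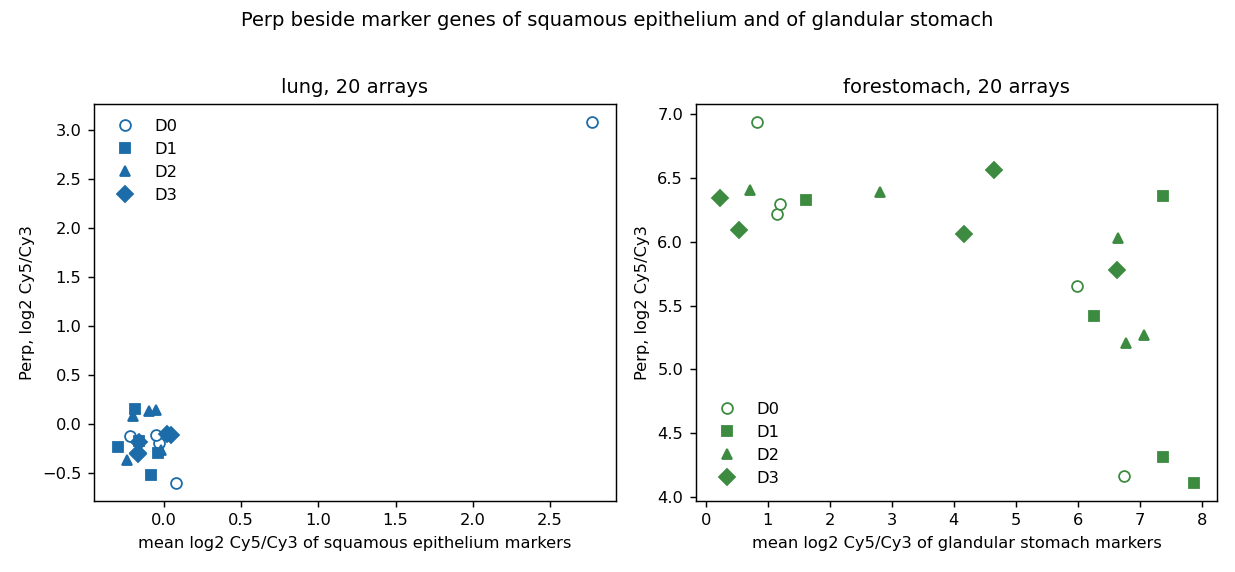
Perp log2 Cy5/Cy3 (vertical axis) against the mean log2 Cy5/Cy3 of 8 squamous epithelium markers on 20 lung arrays (left) and of 6 glandular stomach markers on 20 forestomach arrays (right), 1 point per mouse with a symbol for each dose. The lung array of D0 mouse 1 stands alone at 2.77 and 3.08, and the 3 lowest Perp values in forestomach, 4.11 to 4.31, lie at marker means of 6.74 to 7.87.

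Other p53 targets, those for growth arrest and stress, were read in the same lungs. Of 14 such genes tested, 7 were higher at D3 with an unadjusted p under 0.05 (2.88% of lung probes) and 0 were lower (1.93%), and their median change was 0.26 against 0.0088 for all lung probes. Those with the smallest p were Ephx1, an epoxide hydrolase (0.48 ± 0.11, SE), and Phlda3, an inhibitor of Akt signalling (0.53 ± 0.14). None passed adjustment in the fit without slide, and Ephx1 passed it with the slide block (adjusted p of 0.0244). In liver 0 of the 14 were higher (5.43% of probes) and 1 was lower (6.72%). In forestomach 0 were higher (0.77%) and 0 lower (0.734%). Both p53 lists share the same D0 lungs, so their changes are not independent of each other. Both were also chosen with earlier results of these data known.

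**Figure D5:**
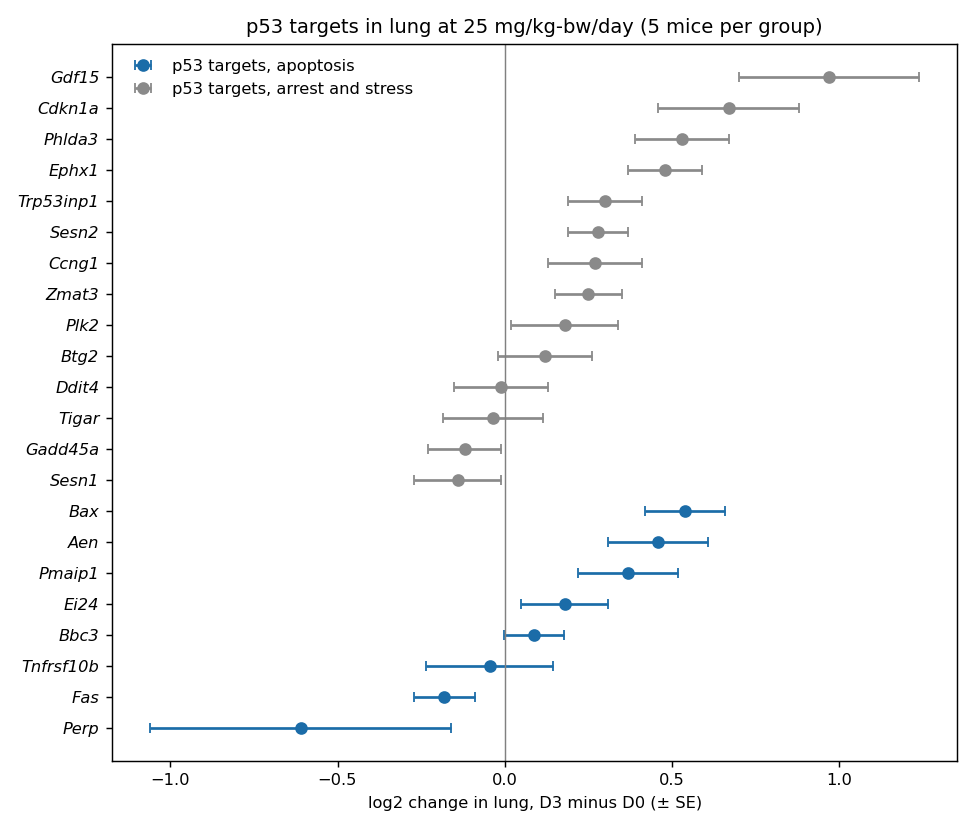
Log2 change in lung from D0 to D3 (horizontal axis) with its SE for the 8 p53 targets for apoptosis and 14 p53 targets for arrest and stress, each sorted by change, 5 mice per group. Bax, Aen and Pmaip1 lie between 0.37 and 0.54, and the large error bar of Perp comes with the value of 3.08 in D0 mouse 1.

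Other genes of p53 control and cell death were read in lung at D3 in the fit without slide, where 2.88% of all lung probes were higher and 1.93% lower with an unadjusted p under 0.05. At those shares lists this small would hold few or no such genes. Of the 5 tested genes of the p53 family and its regulators, 0 passed an unadjusted p of 0.05, with Mdm2, the ligase that degrades p53, at 0.06 ± 0.09 (SE) and Trp53 itself at 0.057 ± 0.15. The relatives of Bax gave -0.052 ± 0.10 for Bak1 and 0.028 ± 0.10 for Bok. Of 5 further BH3-only genes tested, 0 passed, with Bad at 0.078 ± 0.07 and Bid at -0.098 ± 0.17. Among 4 survival genes of the family, Bcl2 was higher by 0.27 ± 0.11 (unadjusted p of 0.0304, adjusted p of 0.984), and Bcl2l1 stood at 0.20 ± 0.11. In death receptor signalling 0 of 7 passed, with the adaptor Fadd at 0.27 ± 0.14 and the TRAIL ligand Tnfsf10 at 0.48 ± 0.43. Of 8 genes of the apoptosome and its caspases 0 passed, with Casp6 at 0.15 ± 0.09 and the caspase inhibitor Xiap at 0.17 ± 0.13. Median changes of these lists lay between -0.012 and 0.087. With slide as a block the limit was passed by Casp9 among the lower (-0.15, unadjusted limma p of 0.0259, against 6.21% of lung probes) and by Tnfsf10, Fadd, Bcl2 and Bcl2l1 among the higher (against 9.37%), and none of these passed adjustment (lowest adjusted p of 0.0609, in Tnfsf10).

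The same lists also differed between tissues at D0. All 4 survival genes were called higher in lung than in liver (median difference 1.36), as were 25.4% of all probes, and 3 of 4 were called higher in lung than in forestomach (0.96), as were 18.8%. Of the 7 death receptor signalling genes, 4 were called higher in liver than in forestomach (18.2% of probes) and 3 higher in lung than in forestomach (18.8%). Fas took the same direction in both. Tnfrsf10b was lower in liver than in forestomach and level between lung and forestomach. Between lung and liver, 2 of the 7 were called higher in lung (25.4% of probes) and 2 lower (19%). Of the 14 arrest and stress targets, 9 were called lower in liver than in forestomach (21% of probes), as Bax and Aen were, and 3 were called higher (18.2%).

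Genes whose values most resembled those of 7 members were sought over the 60 arrays after each tissue mean was taken off, among 11659 genes tested in all 3 tissues. Pmaip1 was left out because its probe was not tested in liver. These correlations describe arrays that share slides and mice. Bax was closest to Psmb10, a subunit of the immunoproteasome (r = 0.67), and Sergef (r = 0.65). Aen was closest to Brix1 (r = 0.68) and Rpf2 (r = 0.67), both factors of ribosome assembly. Perp was closest to Kyat1 (r = 0.90) and Grhl3, a transcription factor of squamous epithelium (r = 0.89). The arrays included the lung of D0 mouse 1, with Perp at 3.08 against -0.60 to 0.15 in the other lungs. Its part in these r values was not tested. Tnfrsf10b was closest to Dclk2 and E2f7 (r = 0.79 for each), and Ei24 to Atp6ap1 (r = 0.76) and Psmb1 (r = 0.67). Bbc3 was closest to Dnmt3b (r = 0.66), and Fas to Ptges3 (r = 0.64) and Acsl4 (r = 0.62). Among the same 7 members the highest correlation was 0.42, between Bax and Aen, and the lowest was -0.44, between Tnfrsf10b and Ei24.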

How the data were processed

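Scanner files of 60 two-colour arrays were used. The deposited files hold median signal intensity, local background intensity and processed signal intensity of each spot, for which the headers name Feature Extraction 10.7.3.1, and the series matrix holds the log2 ratios that the authors normalized by LOWESS. Log2 ratios of median Cy5 to Cy3 intensity, without background subtraction, were normalized here by loess in limma 3.58.1 (R 4.3.3, the data.table package, 1.17.8), and correlated with the deposited log2 ratios at r from 0.992 to 0.999. Control spots were left out, values with an outlier flag were set to missing (0.46%), none was saturated, and replicate spots were averaged by probe. A probe was tested in a tissue if it was well above background on at least 5 of 20 arrays, which kept 31022 lung, 25893 liver and 25070 forestomach probes. The deposited ratios had medians from -0.0413 to -0.0143 over the arrays.

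Doses were compared with D0 within each tissue, slopes were fitted on dose, and tissues were compared in a model of 12 groups on 33255 probes, all with lmFit and eBayes, two-sided, with Benjamini-Hochberg adjustment over all probes tested. A call needed an adjusted p of 0.05 or less and at least 1.5-fold (slopes had no minimum). Mouse numbers pair tissues because they mark the same animal. Precision is limited by having 5 arrays in each group. Code was tested on simulated data with known changes. All 8 members are named, with the brighter Aen probe counted. Of each list, the 2 genes with the smallest p at D3 in lung are named, and for each member tested in all tissues the 2 most similar genes, of which 1 is not reported here. The members and lists were chosen with earlier results of these data known. Probe names came from a RefSeq table of assembly GRCm38.p6, whereas the file headers name mm9, so no coordinate of the files was used. Alternatives were normexp background correction (offset 50), the processed signals, the deposited log2 ratios, Aquantile normalization, 2 other filters, slide as a block, mouse as a block and leaving out each mouse.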

Additional observations from a re-analysis of the deposited data

Results flagged for a closer look

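Each of the 96 combinations of member, tissue and dose was searched for a sample whose gap to the nearest of the other 4 took up most of the group's range, and 5 were found, where chance alone flags about 4.8. Perp in lung of D0 mouse 1 read 3.08 against -0.60 to -0.11 in the others. Pmaip1 in liver of D0 mouse 2 read -1.21 against -2.69 to -2.28, and it was the only one of those arrays well above background. Tnfrsf10b of D2 mouse 13 was high both in lung (-0.51 against -1.48 to -1.30) and in forestomach (-0.83 against -1.42 to -1.25), and both arrays were on slide 2. Ei24 in lung of D1 mouse 9 read 0.69 against 0.22 to 0.30, on slide 3.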

How the results depend on the processing

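The number of members called was the same under every alternative run, or within 1.5 times, except that with slide as a block 2 lung slopes passed where none had (Bax and Aen, the latter by 1 of its 2 probes). Aen in lung minus liver at D0, not called at 0.53, became a call with the processed signals (0.65), with the deposited log2 ratios (0.71) and without D0 mouse 3 (0.72). With mouse as a replicate block, the calls between tissues at D0 stayed at 4, 4 and 7, and no call on the change at D3 was made. Small changes of members that were not called changed sign in places. With normexp, Bax in liver at D3 became 0.0065 and the lung slope of Tnfrsf10b -0.0038, and with the deposited log2 ratios that slope became -0.015. With the processed signals, Tnfrsf10b at D3 became 0.16 in lung and 0.11 in liver, Bbc3 in forestomach at D3 0.063, Bbc3 in lung minus liver at D0 -0.013, and Tnfrsf10b in lung minus forestomach at D0 0.34. The last became 0.0015 without the lung array of D0 mouse 1, a setting chosen after seeing the data. Leaving out each mouse in turn gave ranges that crossed 0 for Perp in lung (-0.86 to 0.057) and its slope (-0.61 to 0.059), Tnfrsf10b in lung (-0.13 to 0.10), its slope (-0.058 to 0.13) and its level in lung minus forestomach (-0.15 to 0.06), Tnfrsf10b (-0.098 to 0.11), Bbc3 (-0.041 to 0.14) and Bax (-0.048 to 0.039) in liver, and Bbc3 (-0.21 to 0.14), Perp (-0.11 to 0.58), Pmaip1 (-0.56 to 0.26) and Fas (-0.14 to 0.0076) in forestomach. Without a change of sign, 1 mouse moved by over 1.5 times Ei24 in lung (0.093 to 0.24), its slope (0.10 to 0.23) and its change in liver (0.15 to 0.32) and forestomach (0.07 to 0.24), Aen in liver (-0.28 to -0.014) and forestomach (0.036 to 0.25), Bbc3 in lung (0.033 to 0.18) and its slope (0.023 to 0.14), Perp in liver (0.042 to 0.20), Bax in forestomach (0.039 to 0.23) and Tnfrsf10b in forestomach (-0.47 to -0.19), none of them called. Tissue differences at D0 that were not called also moved by over 1.5 times on leaving out 1 mouse. Among them were Bbc3 in lung minus liver (0.054 to 0.24), Ei24 in lung minus forestomach (-0.34 to -0.13) and Pmaip1 in liver minus forestomach (-1.13 to -0.21). The cause was not tested. Bax in lung at D3 ranged from 0.45 to 0.62 on leaving out a mouse and from 0.53 to 0.55 over the other settings. Pmaip1 in liver and forestomach, near background, is limited by signal.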
